A study of Mus musculus with 6 samples.

Results

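The alpha and beta tubulin isotypes are the 10 genes Tuba1a, Tuba1b, Tuba1c, Tuba4a, Tuba8, Tubb2a, Tubb2b, Tubb4b, Tubb5 and Tubb6, out of 25718 genes with values in the deposited table. They were chosen by gene symbol from a family that had stood out in earlier results of the same 6 libraries, so their differences between genotypes are described here and not tested. Primary hepatocytes were sequenced from 2 genotypes of alcohol-fed male mice, WT and S100a16KO+/-, with 3 libraries of each. All mice were 8 to 10 weeks old and had 5 days of liquid control diet, 10 days of diet with 5% ethanol and 1 gavage of 5 g/kg ethanol, with collection 9 h later. No group on control diet was analysed here. In S100a16KO+/- mice 1 copy of S100a16 was deleted through EIIa-Cre, which acts in the early embryo, so the allele is missing from the whole body and not from hepatocytes alone. The mice were backcrossed to C57BL/6, and mice without either copy died. The sample labels use the words S100A16 knockdown for this genotype, and the description of the series and the study's methods name a heterozygous knockout.

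Alpha and beta tubulin pair into heterodimers that polymerise into microtubules, and each is encoded by several genes, the isotypes, whose proteins differ mainly in their acidic tails. In hepatocytes, microtubules carry secretory vesicles with albumin and very low density lipoprotein towards the sinusoidal surface, organise the bile canalicular pole and move lipid droplets, lysosomes and mitochondria. Cells also tune tubulin mRNA to the pool of unpolymerised dimer: TTC5 reads the first residues of a nascent tubulin chain on the ribosome and, through SCAPER, brings in the CCR4-NOT deadenylase, which destabilises the mRNA.

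The coding starts of the tubulin isotypes other than Tubb6 are shown because the stretch that TTC5 reads is encoded in their first 4 codons. They come from the GENCODE M21 transcripts on GRCm38, are 30 bases long and run 5′ to 3′ on the coding strand, with the first 12 bases, the 4 codons, in capitals.
Tuba1a: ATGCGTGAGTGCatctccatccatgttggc
Tuba1b: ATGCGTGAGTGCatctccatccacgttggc
Tuba1c: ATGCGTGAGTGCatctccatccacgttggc
Tuba4a: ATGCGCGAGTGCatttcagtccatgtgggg
Tuba8: ATGAGGGAATGCatatcggtccatgtgggt
Tubb2a: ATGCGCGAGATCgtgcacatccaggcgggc
Tubb2b: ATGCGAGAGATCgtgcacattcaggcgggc
Tubb4b: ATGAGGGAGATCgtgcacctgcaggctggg
Tubb5: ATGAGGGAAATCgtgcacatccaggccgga
Tuba1a, Tuba1b and Tuba1c had the same first 12 bases, and the whole stretch shown was the same in Tuba1b and Tuba1c. Tuba4a differed from Tuba1b at 1 of the 12 bases and Tuba8 at 3. Among the beta genes, Tubb4b differed from Tubb5 at 1 base, and Tubb2a and Tubb2b at 3 bases each. An intron splits the first 4 codons in the alpha genes listed and not in the beta genes listed. These are differences of bases, and TTC5 reads the encoded residues. By the standard genetic code the 4 codons read Met-Arg-Glu-Cys in every alpha gene listed and Met-Arg-Glu-Ile in every beta gene listed. The differences within each family thus leave these residues the same. Whether this stretch bears on the mRNA levels was not tested.

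The libraries were comparable in depth, with estimated counts of 67658095 to 71807834 per library, of which 17.0% to 21.1% fell on mitochondrial genes. S100a16 itself, a calcium-binding protein of the S100 family and the gene targeted, had 1001, 1056 and 1107 counts in WT against 433, 390 and 366 in S100a16KO+/- libraries. In CPM, the count scaled to library size with the TMM method of edgeR, its level was 15.3 ± 0.796 and 5.80 ± 0.628 (SD, n = 3). On log2(CPM + 1) of the genes tested, the first principal component (58.9% of the variance) separated the genotypes. The second (12.8%) set WT replicate 1 and S100a16KO+/- replicate 2, at 10.6 and 16.9, apart from the other libraries at -8.8 to -4.3. With this pair left out, the median log2 difference of the 10 isotypes was -0.84. In that fit 7 isotypes and 1748 of all genes were past an adjusted p of 0.05 in the lower direction. With all 6 libraries these were 7 and 1790. The same contrast chose the isotypes, so their count is no check.

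Tubulin mRNA was lower in S100a16KO+/- hepatocytes in both families, and the alpha family differed more. The summed level of the 10 isotypes was 299 to 321 CPM in WT and 158 to 165 CPM in S100a16KO+/- libraries. The median log2 difference, S100a16KO+/- minus WT, was -0.86 over the 10 isotypes, -1.13 over the 5 alpha genes and -0.38 over the 5 beta genes, and 0.006 over all 15957 genes tested. All 10 isotypes passed the filter on low counts. In the edgeR quasi-likelihood fit, 7 isotypes were past an adjusted p of 0.05 in the lower direction, where 11.2% of all tested genes were, and 0 in the higher direction, where 11.6% were. Past the study's thresholds, an unadjusted p under 0.05 and at least a 2-fold difference, were 5 isotypes in the lower direction, against 1.62% of tested genes. They were applied here to the edgeR fit, whereas the study used DESeq2. In 8 isotypes all 3 S100a16KO+/- libraries lay below all 3 WT libraries, against 18.6% of tested genes. Nothing is read from these counts, since the same contrast chose the genes. In bulk RNA, fewer cells of a type and less RNA per cell cannot be told apart.

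**Figure D1:**
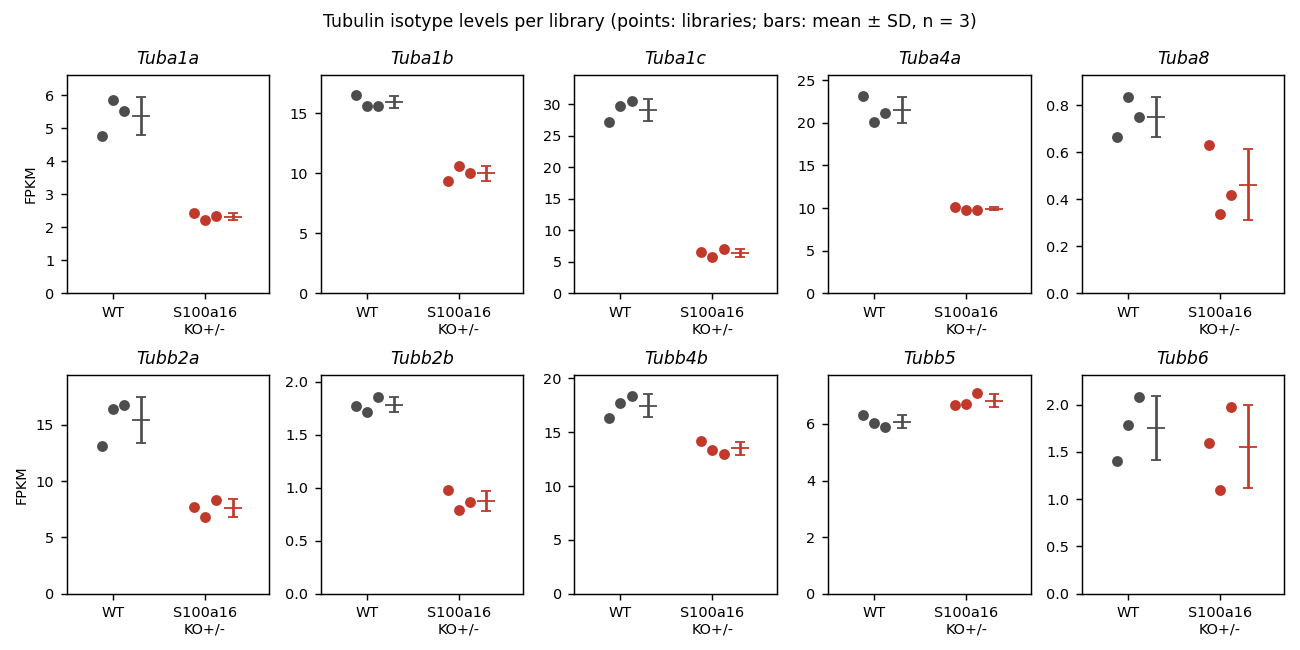
Level of each tubulin isotype in FPKM (vertical axes, starting at 0 and scaled per gene) in the 3 WT (grey) and 3 S100a16KO+/- (red) libraries, with points for libraries and bars for the mean ± SD. Tuba1c went from 29.1 to 6.44 FPKM, whereas Tubb5 and Tubb6 stayed within 6.09 to 6.82 and 1.55 to 1.75 FPKM on average.

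Tuba1c, one of the widely expressed alpha isotypes and the most abundant tubulin in WT hepatocytes, had the largest difference in the family. Its gene spans chr15:99029891-99038110 (plus strand, GRCm38, as for the positions that follow). Its level was 27.1, 29.7 and 30.5 FPKM in WT replicates 1 to 3 and 6.60, 5.73 and 7.00 FPKM in S100a16KO+/- replicates 1 to 3. The groups lay far apart, and the lowest WT library was well above the highest S100a16KO+/- library. In CPM the mean went from 74.5 ± 1.97 to 16.4 ± 0.862 (SD, n = 3), 22.0% of the WT level and a log2 difference of -2.18 (SE 0.06).

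Tuba1a and Tuba1b are the neighbours of Tuba1c at chr15:98949837-98953703 and chr15:98931425-98934565, both read from the minus strand. Tuba1a, known as a main alpha isotype of neurons, had 4.75, 5.86 and 5.52 FPKM in WT and 2.42, 2.21 and 2.33 FPKM in S100a16KO+/- libraries. The groups did not overlap, and the S100a16KO+/- mean in CPM was 43.0% of the WT mean (10.8 ± 0.689 and 4.66 ± 0.146 CPM, log2 difference -1.22, SE 0.11). Tuba1b, a widely expressed isotype of most tissues, had 16.5, 15.6 and 15.6 FPKM in WT and 9.36, 10.6 and 9.98 FPKM in S100a16KO+/- libraries. Its difference was smaller than that of either neighbour, at 62.5% of the WT level in CPM and a log2 difference of -0.68 (SE 0.09), again without overlap.

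These genes cannot be read as fully separate, because their transcripts share sequence. Of the words of 31 bases in the Tuba1a transcripts, 77.0% also occurred in another gene, most often Tuba1c, and for Tuba1b and Tuba1c the shares were 68.9% and 55.3%. With words of 100 bases the shares of Tuba1a, Tuba1b and Tuba1c were 65.1%, 62.1% and 46.0%. Of these longer words, Tuba1a and Tuba1b shared 34.9% and 43.4% with Tuba1c, and Tuba1c shared 36.5% with Tuba1b. When the counts of Tuba1a, Tuba1b and Tuba1c were summed before the fit, the log2 difference of the sum was -1.50.

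Tuba4a and Tuba8 share few such words with other genes (2.80% and 1.93% of 31 bases), so few of their reads could also belong elsewhere. Tuba4a, an isotype whose gene does not encode the terminal tyrosine that most alpha tubulins carry, is at chr1:75214228-75219865 (minus strand). It had 23.1, 20.1 and 21.2 FPKM in WT and 10.1, 9.82 and 9.80 FPKM in S100a16KO+/- libraries. The S100a16KO+/- libraries were nearly the same as each other and below every WT library, at 45.8% of the WT level in CPM (89.3 ± 10.3 and 40.9 ± 1.99 CPM, log2 difference -1.13, SE 0.08). Stk16, which overlaps the end of Tuba4a on the opposite strand, had 2142 to 2254 counts in WT and 2065 to 2401 in S100a16KO+/- libraries, ranges that overlap.

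Tuba8, an isotype best known from muscle and testis, was the least abundant member in both genotypes. At chr6:121210696-121226854 (plus strand), it had 0.666, 0.836 and 0.752 FPKM in WT and 0.633, 0.339 and 0.418 FPKM in S100a16KO+/- libraries. S100a16KO+/- replicate 1 lay just under the lowest WT library and the other two well under it. The log2 difference was -0.70 with an SE of 0.26. With 1 library left out it ranged from -0.97, without S100a16KO+/- replicate 1, to -0.56, without S100a16KO+/- replicate 2. Tuba8 was not among the 7 isotypes past an adjusted p of 0.05. The count behind it was small, 59 to 145 per library, where 1 sequenced fragment was worth about 4 counts.

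Tubb2a and Tubb2b, the class II beta tubulins, differed to the same degree. Tubb2a (chr13:34074274-34078007, minus strand) had 13.1, 16.4 and 16.8 FPKM in WT and 7.68, 6.77 and 8.34 FPKM in S100a16KO+/- libraries. WT replicate 1 was the lowest of its group and still above every S100a16KO+/- library. Tubb2b (chr13:34126748-34130466, minus strand), the copy known from the developing nervous system, had 1.77, 1.72 and 1.86 FPKM in WT and 0.976, 0.790 and 0.870 FPKM in S100a16KO+/- libraries. Both had a log2 difference of -1.03, with SEs of 0.09 and 0.16, and S100a16KO+/- means in CPM at 49.1% and 49.0% of WT. These copies share 56.4% and 43.1% of their words of 31 bases with other genes, mostly with each other. Their summed counts gave -1.03, as equal differences must, which does not tell how reads were assigned between the copies.

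Tubb4b, the broadly expressed class IVb isotype, was the most abundant beta tubulin in both genotypes. At chr2:25222160-25224702 (minus strand), it had 16.3, 17.7 and 18.4 FPKM in WT and 14.2, 13.3 and 13.0 FPKM in S100a16KO+/- libraries. The groups did not overlap, but the difference was modest, at 76.9% of the WT level in CPM (40.9 ± 1.21 and 31.5 ± 2.06 CPM, log2 difference -0.38, SE 0.07). Its processed copy Tubb4b-ps1, which holds 41.0% of its words of 31 bases, had 56 to 120 counts in WT and 45 to 48 counts in S100a16KO+/- libraries, against 2096 to 2894 for Tubb4b.

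Tubb5, the ubiquitous class I beta tubulin, did not share this direction. At chr17:35833921-35838306 (minus strand), it had 6.32, 6.04 and 5.89 FPKM in WT and 6.68, 6.69 and 7.10 FPKM in S100a16KO+/- libraries. In FPKM every S100a16KO+/- library was slightly above every WT library, while in TMM-scaled CPM the groups overlapped (22.7 ± 1.80 in WT and 25.3 ± 0.974 in S100a16KO+/-, log2 difference 0.15, SE 0.08). Tubb6, the class V isotype (chr18:67390717-67402749, plus strand), had 1.40, 1.78 and 2.08 FPKM in WT and 1.59, 1.10 and 1.98 FPKM in S100a16KO+/- libraries. Its groups overlapped, with a log2 difference of -0.19 (SE 0.19), and its spread within a genotype was among the widest in the family (19.4% and 28.5% of the mean, against 3.62% and 3.55% for Tubb5).

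**Figure D2:**
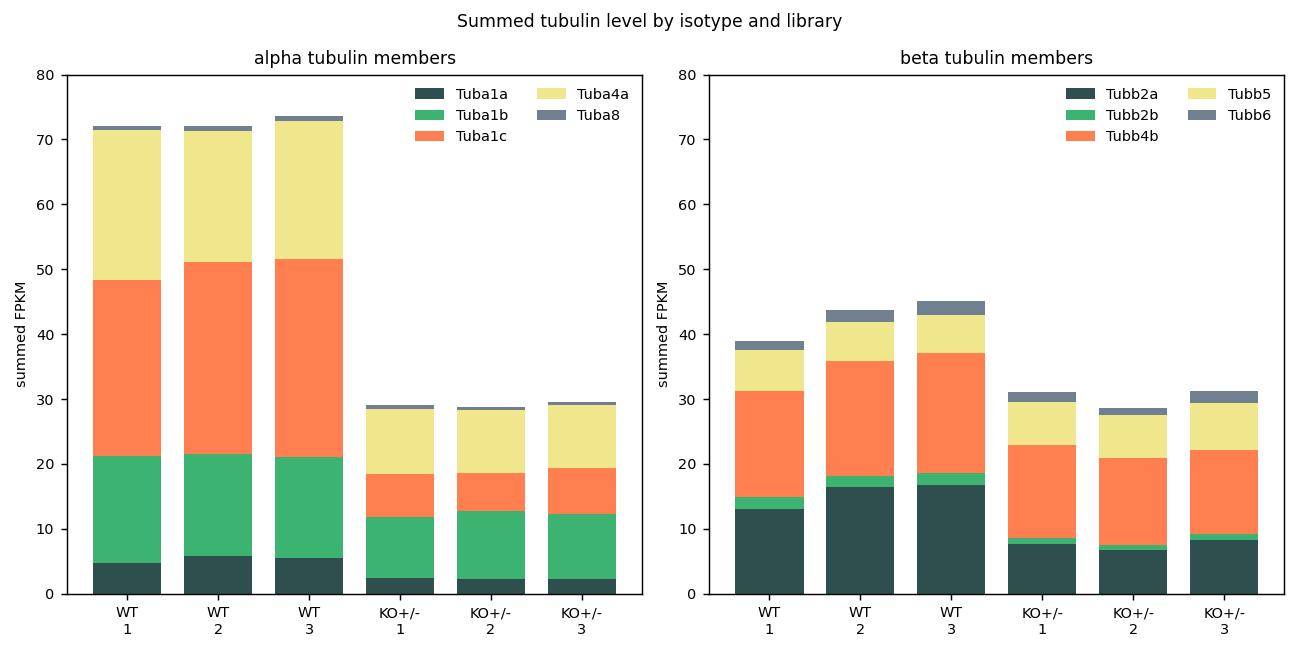
Summed FPKM (vertical axis, starting at 0) of the alpha and of the beta tubulin members in each library, with WT and S100a16KO+/- (KO+/-) replicates side by side and a colour for each isotype. The alpha sum is 72.0 to 73.6 FPKM in WT and 28.7 to 29.5 FPKM in S100a16KO+/- libraries, with the Tuba1c segment shrinking most, and the beta sum is 38.9 to 45.0 and 28.7 to 31.3 FPKM.

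The makeup of the pool differed along with its size. FPKM values, which are scaled for transcript length, were summed per family in each library. The alpha sum was 72.2, 72.0 and 73.6 FPKM in WT and 29.1, 28.7 and 29.5 FPKM in S100a16KO+/- libraries, 40.1% of WT. The beta sum was 38.9, 43.6 and 45.0 FPKM in WT and 31.1, 28.7 and 31.3 FPKM in S100a16KO+/- libraries, 71.4% of WT. Both sums separated the genotypes, and the ratio of alpha to beta mRNA, 1.71 ± 0.122 in WT, was 0.960 ± 0.0365 in S100a16KO+/- hepatocytes (SD, n = 3).

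Within the alpha family, Tuba1c held 40.1 ± 2.14% of the FPKM sum in WT and 22.1 ± 1.94% in S100a16KO+/- hepatocytes. Tuba1b held 21.9 ± 0.901% and 34.3 ± 2.42%, and Tuba4a 29.6 ± 2.13% and 34.0 ± 0.732%, so that both together made up most of the remaining alpha mRNA. Within the beta family the share of Tubb2a went from 36.1 ± 2.17% to 25.0 ± 1.54% and that of Tubb5 from 14.4 ± 1.65% to 22.5 ± 0.953%. Tubb4b was the largest beta share in both, at 41.2 ± 0.722% and 44.5 ± 2.65%. Taken from counts instead of FPKM, the shares of Tuba1c were 35.5% and 19.6%, and those of Tubb5 22.6% and 33.0%, with the same directions.

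In order of FPKM, WT hepatocytes held Tuba1c, Tuba4a, Tubb4b, Tuba1b, Tubb2a, Tubb5, Tuba1a, Tubb2b, Tubb6 and Tuba8. Neighbours whose ranges overlapped were Tubb4b with Tuba1b, Tuba1b with Tubb2a, and Tubb2b with Tubb6. In S100a16KO+/- hepatocytes the order was Tubb4b, Tuba1b, Tuba4a, Tubb2a, Tubb5, Tuba1c, Tuba1a, Tubb6, Tubb2b and Tuba8, with overlap between Tuba1b and Tuba4a, Tubb2a and Tubb5, and Tubb5 and Tuba1c. Tuba1c thus moved from the top of the order to the middle.

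The promoters of the isotypes with the largest difference and with no lower level are shown for contrast, as the 250 bases upstream of the RefSeq gene start (GRCm38.p6), 5′ to 3′ on the strand of the gene. The Tuba1c stretch is chr15:99029641-99029890 (plus strand) and the Tubb5 stretch chr17:35838302-35838551 (minus strand), with capitals for CCAAT on either strand (ATTGG on the other).
Tuba1c: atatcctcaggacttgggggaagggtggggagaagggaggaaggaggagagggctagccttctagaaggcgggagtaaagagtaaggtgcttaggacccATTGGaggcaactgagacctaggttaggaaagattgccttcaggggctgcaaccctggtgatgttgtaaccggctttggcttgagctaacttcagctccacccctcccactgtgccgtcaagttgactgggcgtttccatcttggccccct
Tubb5: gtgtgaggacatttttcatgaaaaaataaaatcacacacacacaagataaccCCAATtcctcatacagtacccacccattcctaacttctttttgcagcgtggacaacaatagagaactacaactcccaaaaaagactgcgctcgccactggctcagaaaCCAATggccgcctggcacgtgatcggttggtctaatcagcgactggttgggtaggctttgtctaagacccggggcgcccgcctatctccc
Searched on both strands, in the 8 member promoters that the RefSeq table held, were CCAAT (a motif known to bind the factor NF-Y), GGGCGG (the GC box known to bind SP proteins) and TATAAA, the core promoter element of many regulated genes. CCAAT occurred 1 time in Tuba1c, 1 time in Tuba1a, 2 times in Tubb5 and 5 times in Tubb4b, and it was present in 33.8% of all 32851 promoters. GGGCGG (32.7% of all promoters) occurred 2 times each in Tuba1b, Tuba4a and Tubb2a, 1 time each in Tuba1a and Tubb4b and not in Tuba1c, Tuba8 or Tubb5. TATAAA (12.4%) occurred only in Tubb2a among the 8. The letters thus placed Tuba1c and Tubb5 together, with CCAAT and no GGGCGG. RefSeq and the deposited table did not always place the gene start alike. The Tuba4a stretch, chr1:75219295-75219544, lay inside the deposited span of its gene. Those of Tuba1a, Tuba1b, Tuba8 and Tubb5 overlapped the span in part, so the stretches are not fully alike. A match describes these letters only.

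**Figure D3:**
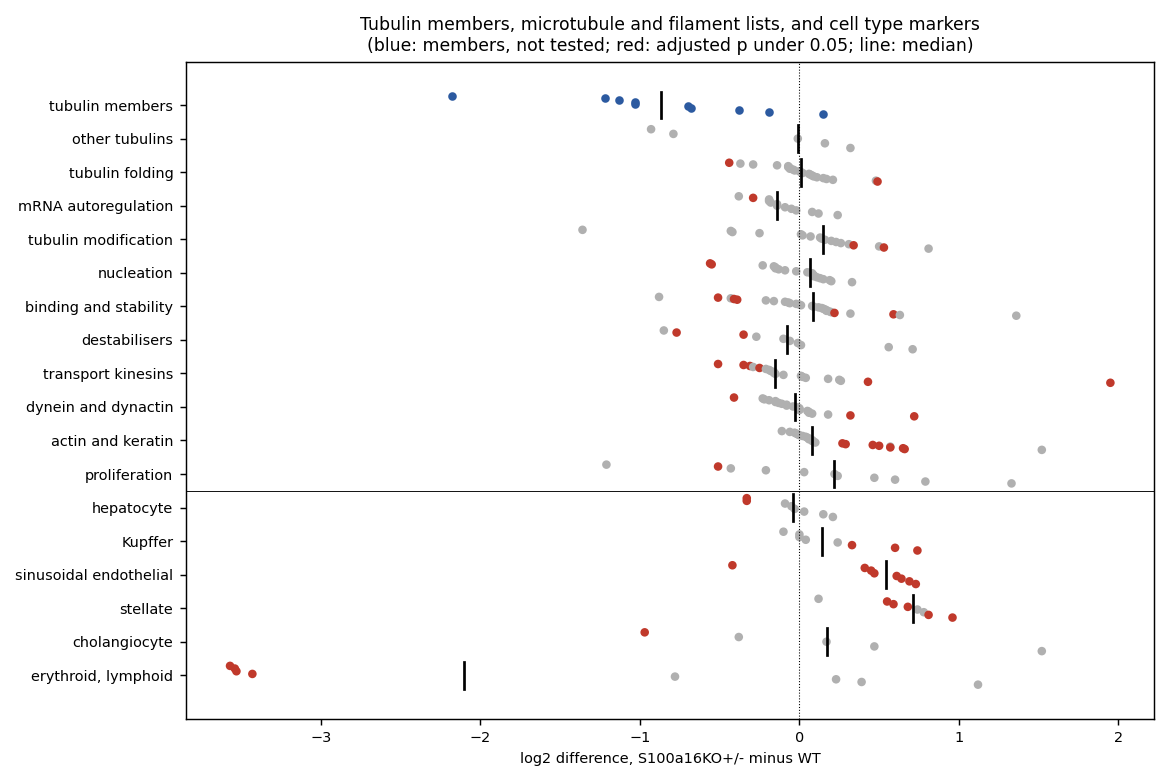
Log2 difference, S100a16KO+/- minus WT (horizontal axis), of the tubulin members (blue, not tested) and of the tested genes of each list, above the rule the microtubule, filament and proliferation lists and under it the cell type markers. Red points passed an adjusted p of 0.05, grey points did not, and black lines are medians; the members' median is -0.86 and those of the lists above the rule lie between -0.15 and 0.22.

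Genes that fold, modify, nucleate, bind and walk on tubulin were counted in both directions. Of 159 tested genes in 9 lists of microtubule biology, 14 fell (8.81%) and 9 rose (5.66%) in S100a16KO+/- hepatocytes by edgeR's quasi-likelihood test, adjusted over all 15957 genes, with a median log2 difference of -0.00. Both shares were below those of all tested genes (11.2% lower and 11.6% higher). List by list, the share that fell was 20% of the transport kinesins and of the destabilisers, 10.7% of the binding and stability genes, 10% of the nucleation genes, 7.69% of the autoregulation genes, 4.55% of the dynein and dynactin genes, 4.35% of the folding genes and 0% of the modifying enzymes and other tubulins. With actin and keratin filament and proliferation genes added, 15 of 194 fell and 16 rose. The number that fell went to 7 without WT replicate 2 and to 9 without WT replicate 3.

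Among the other tubulins, Tubg1, the gamma tubulin that nucleates microtubules, had 769 to 1029 counts in WT and 710 to 1132 in S100a16KO+/- libraries (edgeR log2 difference -0.01, SE 0.25, adjusted p = 0.987). Its groups overlapped throughout. Tubd1 and Tube1, the delta and epsilon tubulins of centrioles, had log2 differences of 0.16 (SE 0.23, adjusted p = 0.689 by edgeR) and -0.93 (SE 0.47, adjusted p = 0.190). The neuronal beta tubulins Tubb3 and Tubb4a had 3 to 16 and 0 to 40 counts per library, at about 4 counts a fragment, with log2 differences of 0.32 (SE 0.80) and -0.79 (SE 0.94) and adjusted p = 0.833 and 0.626 by edgeR. Tubg2, at 0 to 11 counts, was not tested.

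Tubulin folding genes, which hand new chains from prefoldin and the CCT chaperonin to the tubulin cofactors, changed little. Of 23 tested, 1 rose and 1 fell, with a median log2 difference of 0.01. Tbcb, a cofactor that binds alpha tubulin, rose from 7.64 ± 0.499 to 10.7 ± 0.761 CPM (log2 difference 0.49, SE 0.11, edgeR adjusted p = 0.00432). Tbcel, a cofactor-like protein known to destabilise tubulin, fell from 40.3 ± 1.29 to 29.7 ± 0.604 CPM (-0.44, SE 0.06, edgeR adjusted p = 9.77e-05).

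The genes of tubulin mRNA autoregulation were measured as well, and neither the reader nor the adaptor passed the test. Ttc5 had 312, 329 and 394 counts in WT and 332, 301 and 489 in S100a16KO+/- libraries (log2 difference 0.12, SE 0.17, edgeR adjusted p = 0.693). Scaper had 415, 445 and 463 counts in WT and 301, 268 and 449 in S100a16KO+/- libraries (-0.38, SE 0.16, edgeR adjusted p = 0.117). Both overlapped between genotypes, with S100a16KO+/- replicate 3 the highest of its group in both, and without that library Scaper had -0.59 (edgeR adjusted p = 0.0173) and Ttc5 -0.08. Of the 13 genes tested in this list, 1 fell: Cnot7, a deadenylase subunit of CCR4-NOT, from 20.6 ± 1.59 to 16.8 ± 1.75 CPM (-0.29, SE 0.10, edgeR adjusted p = 0.0415). Its call was lost in 4 of the 6 fits that left out a library, with adjusted p up to 0.173.

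Of the 18 tubulin modifying enzymes tested, 2 rose and 0 fell. These were Atat1, the acetyltransferase of alpha tubulin (4.74 ± 0.631 to 6.84 ± 0.516 CPM, log2 difference 0.53, edgeR adjusted p = 0.0135), and Sirt2, a deacetylase with tubulin among its substrates (29.8 ± 2.76 to 37.7 ± 3.20 CPM, 0.34, edgeR adjusted p = 0.00743). These enzymes have opposite known actions, and the Atat1 call was lost without WT replicate 2 or 3 (edgeR adjusted p = 0.0642 and 0.0606). Of 20 nucleation genes, the augmin subunits Haus2 and Haus6 fell (-0.56 and -0.55, edgeR adjusted p = 0.0296 and 0.0414), calls that were lost in 5 and 6 of the 6 fits that left out a library, with adjusted p up to 0.111 and 0.165.

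Of 28 genes for microtubule binding and stability, 2 rose and 3 fell. Eml3, which recruits nucleators to existing microtubules, rose from 13.3 ± 0.613 to 19.9 ± 2.35 CPM (log2 difference 0.59, SE 0.10, edgeR adjusted p = 0.000479). The genes that fell were Mtus1, Tppp and Camsap3 (-0.39, -0.51 and -0.41, edgeR adjusted p = 0.000137, 0.0244 and 0.0423). Of 10 tested destabilisers, 2 fell. Fign, a severing enzyme, went from 3.01 ± 0.566 to 1.77 ± 0.353 CPM (-0.77, SE 0.22, edgeR adjusted p = 0.0224), a call lost in 4 of the 6 fits that left out a library, with adjusted p up to 0.0945.

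Of 20 transport kinesins, 2 rose and 4 fell. The largest difference was that of Kif3c, a kinesin II motor of low level here (0.465 ± 0.275 to 1.80 ± 1.21 CPM, log2 difference 1.95, SE 0.54, edgeR adjusted p = 0.0250). S100a16KO+/- replicate 3 was the highest library, and without it the log2 difference was 1.26 (edgeR adjusted p = 0.114), while without WT replicate 2 it was 2.54 (edgeR adjusted p = 0.00787). The call was also lost without WT replicate 1 or WT replicate 3, with adjusted p of 0.0974 and 0.123. Kif21a rose as well (0.43, edgeR adjusted p = 0.000366). The kinesins that fell were Kif3b, Kif5b, Kif13b and Kifc3. Their log2 differences were -0.35, -0.31, -0.25 and -0.51 (edgeR adjusted p = 0.0365, 0.00611, 0.0117 and 0.00778). Of 22 dynein and dynactin genes, 2 rose and 1 fell. Among them Nde1, a dynein regulator, rose from 6.34 ± 0.764 to 10.5 ± 1.24 CPM (0.72, SE 0.13, edgeR adjusted p = 0.000908). The gene that fell was Dynll2, from 83.1 ± 4.18 to 62.5 ± 3.37 CPM (-0.41, SE 0.06, edgeR adjusted p = 0.000189).

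Genes of the other filament systems that changed went the other way. Of 24 actin and keratin filament genes, 7 rose and 0 fell by edgeR, with a median log2 difference of 0.08. Tpm4, a tropomyosin that coats actin filaments, rose from 11.3 ± 0.464 to 17.8 ± 0.869 CPM (0.65, SE 0.09, edgeR adjusted p = 7.57e-05), and Vim, the intermediate filament of mesenchymal cells, from 3.89 ± 0.283 to 6.15 ± 0.642 CPM (0.66, SE 0.14, edgeR adjusted p = 0.00394). Under 1.5-fold, the keratin gene Krt18 rose from 115 ± 7.73 to 171 ± 11.7 CPM (0.57, SE 0.06, edgeR adjusted p = 1.74e-05). The actin gene Actg1 rose from 172 ± 4.68 to 207 ± 2.36 CPM (0.27, SE 0.05, edgeR adjusted p = 0.00105). Markers of stellate and sinusoidal endothelial cells, given further on, were also higher, and their part in any of these rises was not tested. Of 11 tested proliferation markers, 1 fell, Tk1, the thymidine kinase of S phase (13.7 ± 0.501 to 9.62 ± 1.05 CPM, -0.51, SE 0.10, edgeR adjusted p = 0.00227). Pcna, the sliding clamp of DNA replication, had 0.24 (edgeR adjusted p = 0.0863).

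Markers of other liver and blood cells also differed between the genotypes, and their part in the tubulin levels was not tested. Hepatocyte markers dominated every library, with a summed 112924 to 124697 CPM over 8 genes in WT and 109402 to 121022 CPM in S100a16KO+/- libraries, and of these 2 fell, Ttr and Cyp2e1 (both -0.33 on the log2 scale, edgeR adjusted p = 0.000645 and 0.000106). Sinusoidal endothelial markers summed to 247 to 258 CPM in WT and 362 to 377 CPM in S100a16KO+/- libraries, with 7 of 8 higher and Lyve1 lower. Stellate cell markers summed to 57.2 to 63.4 and 96.6 to 111 CPM, with 5 of 8 higher, among them Dcn (0.96, edgeR adjusted p = 2.64e-07) and Lrat (0.81, edgeR adjusted p = 0.000585).

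Kupffer cell markers summed to 135 to 161 CPM in WT and 159 to 175 CPM in S100a16KO+/- libraries, with 3 of 8 higher, and cholangiocyte markers to 4.75 to 6.85 and 5.15 to 5.69 CPM, with Sox9 lower of 5 tested. Erythroid and lymphoid markers summed to 217 to 251 CPM in WT and 28.2 to 30.3 CPM in S100a16KO+/- libraries, a difference that lay in the erythroid genes. The 4 of 8 that fell encode haemoglobin chains. The alpha chain copies Hba-a1 and Hba-a2 had log2 differences of -3.53 and -3.57, and the beta chain copies Hbb-bs and Hbb-bt -3.43 and -3.54 (largest edgeR adjusted p = 3.06e-05). How far reads are shared between these copies was not measured. None of the 4 leukocyte and lymphoid markers passed the test, with log2 differences of 0.23 for Ptprc, 0.39 for Cd79a, 1.12 for Nkg7 and -0.78 for Cd3e. No listed marker was at 0 in every library.

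The genes whose profile over the 6 libraries was most like the mean profile of the tubulin isotypes were 4931406C07Rik, Thrsp, Hbb-bs, Mal2 and Bhmt, with Pearson r of 0.9998, 0.9989, 0.9988, 0.9986 and 0.9986 on log2(CPM + 1). Thrsp, a nuclear protein known from lipogenesis, had 282 to 301 CPM in WT and 128 to 138 CPM in S100a16KO+/- libraries. Bhmt, an enzyme of methionine synthesis from betaine, had 5215 to 5505 and 2247 to 2325 CPM. Such a profile is mostly the step between the genotypes, and 1166 of the 9030 genes compared had an r of at least 0.9, so the order among them describes these 6 libraries only.

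**Figure D4:**
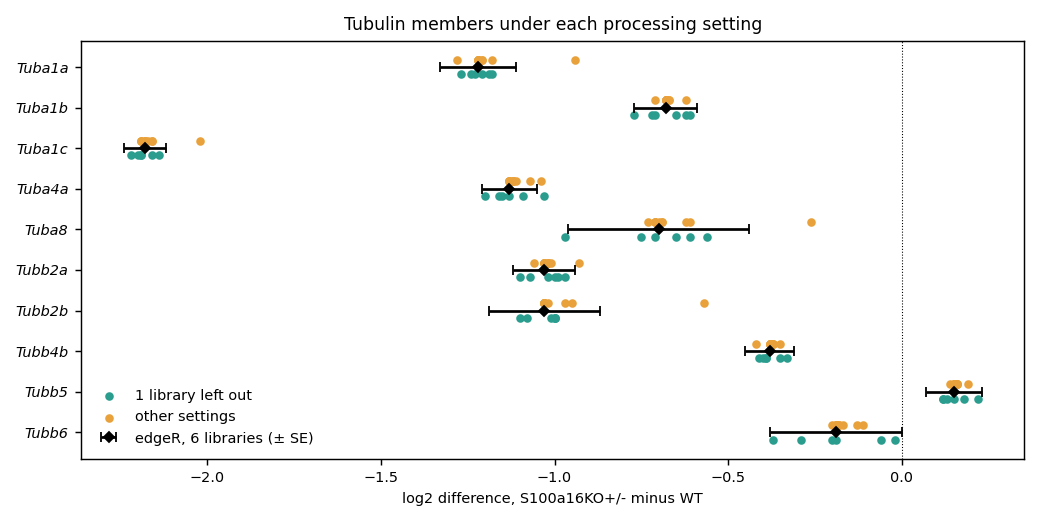
Log2 difference, S100a16KO+/- minus WT (horizontal axis), of each tubulin member in the edgeR fit of 6 libraries (black, ± SE), with 1 library left out (green) and under the other processing settings that keep the isotypes apart (orange). None of these settings brings a member across 0, Tuba1c stays between -2.22 and -2.02, and Tuba8, Tubb2b and Tubb6 span the widest ranges.

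Over 16 processing settings with the isotypes kept apart, the log2 difference of Tuba1c stayed between -2.22 and -2.02, that of Tuba4a between -1.20 and -1.03 and that of Tubb2a between -1.10 and -0.93. Tubb2b spanned -1.10 to -0.57 and Tuba8 -0.97 to -0.26, both nearest to 0 on log2(FPKM + 1), a scale that understates differences of low genes. Tubb5 stayed between 0.12 and 0.22 and Tubb6 between -0.37 and -0.02. With their counts summed, Tuba1a, Tuba1b and Tuba1c share the single value of -1.50, in place of -1.22, -0.68 and -2.18. A sum lies between its parts by construction, so this value tests none of the separate ones.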

How the data were processed

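The 10 tubulin genes, the gene lists and the rules were chosen with earlier results of these data known. Poly(A)-selected, strand-specific paired-end libraries with molecular identifiers in the adapters were made from hepatocytes isolated by collagenase perfusion and Percoll. Whether the cells were cultured before RNA extraction is not given in the sources used here. Per gene and library the authors deposited 2 values, an estimated count that is not scaled for depth and an FPKM value scaled by them for length and depth. The submitters' processing notes name cutadapt 1.9, HISAT2 2.0.4, UMI-tools, StringTie 1.3.4d, DESeq2, edgeR and mm10, without their roles. WT replicate 1 had 561, 936 and 259 genes at 3, 4 and 5 counts, so 1 fragment is worth about 4 counts and a count of 0 allows 12 counts, which covers counting error only. All 10 genes have the start and end of GENCODE M21 (GRCm38), as do 23008 of 25655 table genes found there.

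Counts were fitted in R 4.3.3 with edgeR 4.0.16 (TMM, filterByExpr, robust quasi-likelihood test, two-sided, no covariate), with Benjamini-Hochberg adjustment over 15957 genes. Each library was taken as 1 replicate; no source used here ties a library to 1 animal, so p-values measure the spread between these libraries, which may be technical. Named genes are the members, S100a16, the other tubulins, Ttc5, Scaper, list genes past an adjusted p of 0.05 and 1.5-fold (or else the 2 with the smallest adjusted p) and the 5 most alike profiles among genes whose mean FPKM reached 1. Stk16, Tubb4b-ps1 and Lyve1 were named after their values were seen. So were Krt18, Actg1, Kif21a, Kif3b, Kif5b, Kif13b, Kifc3, Dynll2, Mtus1, Tppp and Camsap3. The genes named in this way were not followed in the fits that left out a library. Alternatives were DESeq2 1.42.0, limma 3.58.1 with trend on log2(FPKM + 1) and log2(FPKM + 0.1), other scalings and filters, counts divided by 4, copies summed, a replicate block and each library left out. The fit of 4 libraries without WT replicate 1 and S100a16KO+/- replicate 2 was added after seeing the data. The fit was also run on simulated counts with 200 changed genes and dispersions from the fit of these data. That is fewer changed genes than were called here, and nothing is concluded from the simulation. Shared words were counted over GENCODE M21 transcripts.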

Additional observations from a re-analysis of the deposited data

How the results depend on the processing

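Under 16 settings with the isotypes kept apart, the direction of every tubulin member was kept. Of the summary counts and medians, 104 values stayed within their limit and 12 moved. The limit was 1.5-fold for a count and the spread between libraries for a median. Counts and medians of the members are among these values and are no check, since the same contrast chose the genes. With the study's thresholds (unadjusted p under 0.05 and at least 2-fold), 463 genes were higher and 258 lower, in place of 1853 and 1790. These counts come from the edgeR fit, and the study used DESeq2, so they are not the study's own. With limma on log2(FPKM + 0.1) and log2(FPKM + 1), genes lower numbered 1033 and 1035, genes lower among the microtubule, filament and proliferation lists (pathway genes) 5 and 5 in place of 15, and the median of the members was -0.81 and -0.60. With 1 library left out, pathway genes lower ranged from 7 to 11 and the median of the members from -1.0 to -0.82. The cause was not tested.

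Of 3 genes that were not called, the sign of the log2 difference changed: with 1 library left out, Tubb3 ranged from -0.10 to 0.79, Tubg1 from -0.32 to 0.13 and Ttc5 from -0.08 to 0.23, and with at least 1 CPM in 3 libraries Tubg1 had 0.00. Of the 32 called genes that were followed in the fits with a library left out, members apart, 7 lost the call in at least 1 (Cnot7, Atat1, Haus2, Haus6, Fign, Kif3c and Cd68).

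Same-numbered libraries showed little shared deviation from their group means, with correlations of -0.047, -0.024 and 0.052. These values cannot show whether the libraries were prepared in pairs. With the replicate block 1566 genes were higher and 1516 lower, 7 members were lower and their median was -0.88. Low depth limits Tuba8, Tubb3, Tubb4a and Tube1, at about 1 fragment per 4 counts.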
